A study of Mus musculus with 2 samples.

Results

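The extracellular matrix and fibroblast genes are 54 genes taken by name: collagens, laminins and other basement membrane proteins, matrix glycoproteins, proteoglycans, the enzymes that fold and cross-link collagen, matrix proteases with their inhibitors, and a few fibroblast markers. All 54 symbols were found among the 38087 Ensembl gene identifiers of each deposited table. The tables come from parietal cells, which secrete acid in the glands of the stomach, sorted from C57BL/6 mice on a high fat diet (HFD) or from control mice. Each group was represented by 1 library, so the design has no replicates and no difference between the groups could be tested. The libraries are called HFD and control below. The sources used here give no age, time on the diet, number of mice per library or sorting marker.

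Connective tissue matrix is mostly made by fibroblasts and other mesenchymal cells: fibril-forming collagens give tensile strength, elastic fibres give recoil, and small proteoglycans space the fibrils. Basement membranes are sheets of collagen IV, laminin, nidogen and perlecan that lie beneath epithelia and around vessels and muscle, and epithelial cells make part of them. Collagen chains are hydroxylated and folded in the endoplasmic reticulum before they leave the cell and are cross-linked outside it. In the stomach the gland epithelium rests on such a membrane, with fibroblasts of the lamina propria below. A sort for parietal cells is meant to leave those fibroblasts behind.

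Values are RPKM, reads per kilobase of gene, scaled to the reads of the library, so they can be compared between genes. Genes at or below 1 RPKM are listed as 0 in the tables, and "listed at 0" below means only that. Where a pair of values is given for a gene or list, the HFD library comes first. The libraries held an estimated 25.5 M reads (HFD) and 9.84 M reads (control), so a gene with 5 kb of exons at 1 RPKM rested on about 127 and 49.2 reads. Intervals given with ratios are approximate 95% exact binomial intervals from such estimated reads. They hold counting error alone, and reads that lack molecular identifiers need not be separate molecules. The parietal markers were abundant in both libraries, with the proton pump gene Atp4a at 4997 RPKM with HFD and 4324 in control. The chief cell gene Pgc was abundant too, at 45624 and 102292 RPKM. The 54 matrix genes together summed to 211 RPKM with HFD and 533 in control, or 0.0727% and 0.150% of the RPKM of all protein-coding genes.

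Most of the matrix genes were lower in the HFD library. Of the 54, 52 were listed above 0 in at least 1 library, and 44 of these were lower with HFD and 8 higher. Also lower were 8985 of all 16037 measured genes and 6705 of 11976 measured protein-coding genes. On the log2(RPKM + 1) scale 33 of the 52 members were over 2-fold lower and 3 over 2-fold higher. The same was true of 23.9% (lower) and 12.5% (higher) of all 16037 measured genes, and of 20.1% and 8.02% of the measured protein-coding genes. The median of the 52 differences was -1.27, beside -0.13 over all measured genes and -0.11 over measured protein-coding genes. This scale understates the differences of low genes listed in both libraries and can overstate those of genes listed in 1, since a listed 0 may be up to 1 RPKM. Being listed in a single library is enough to pass 2-fold on it. That applied to 13 of the 33 lower genes, which were listed at 0 in the HFD library, and to all 3 of the higher genes. With a listed 0 entered as 1 RPKM, 27 were over 2-fold lower and 0 higher. Among measured protein-coding genes 12.4% were listed at 0 in the HFD library only and 4.07% in the control library only.

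The 36 members listed in both libraries do not depend on how a 0 is entered. Of these, 31 had a ratio of RPKM below 1, as did 52.2% of protein-coding genes listed in both. The whole interval lay beyond 2-fold on the lower side for 20 of the 36 and on the higher side for none. Among protein-coding genes the shares were 8.74% and 4.07%. Col3a1 was the member closest inside that limit, at 2.10 times lower (2.03 to 2.18), and Sparc the closest outside by its interval, at 1.95 times lower (1.81 to 2.10).

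The scale matters for the size of these differences. With the HFD values rescaled to the sum without the 20 most abundant genes, a log2 shift of -0.60, the median difference became -0.63 over all measured genes (from -0.13) and -1.71 over the members. The split was then 40 members over 2-fold lower and 2 higher, against 35.2% and 6.88% of all measured genes. Of the members, 5 changed side under 1 of 4 other scalings: Fbln2, Mmp14 and P4ha2 were lower in the HFD library under that scaling, and Fbln1 and Timp3 were higher when scaled to the sum over protein-coding genes.

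**Figure D1:**
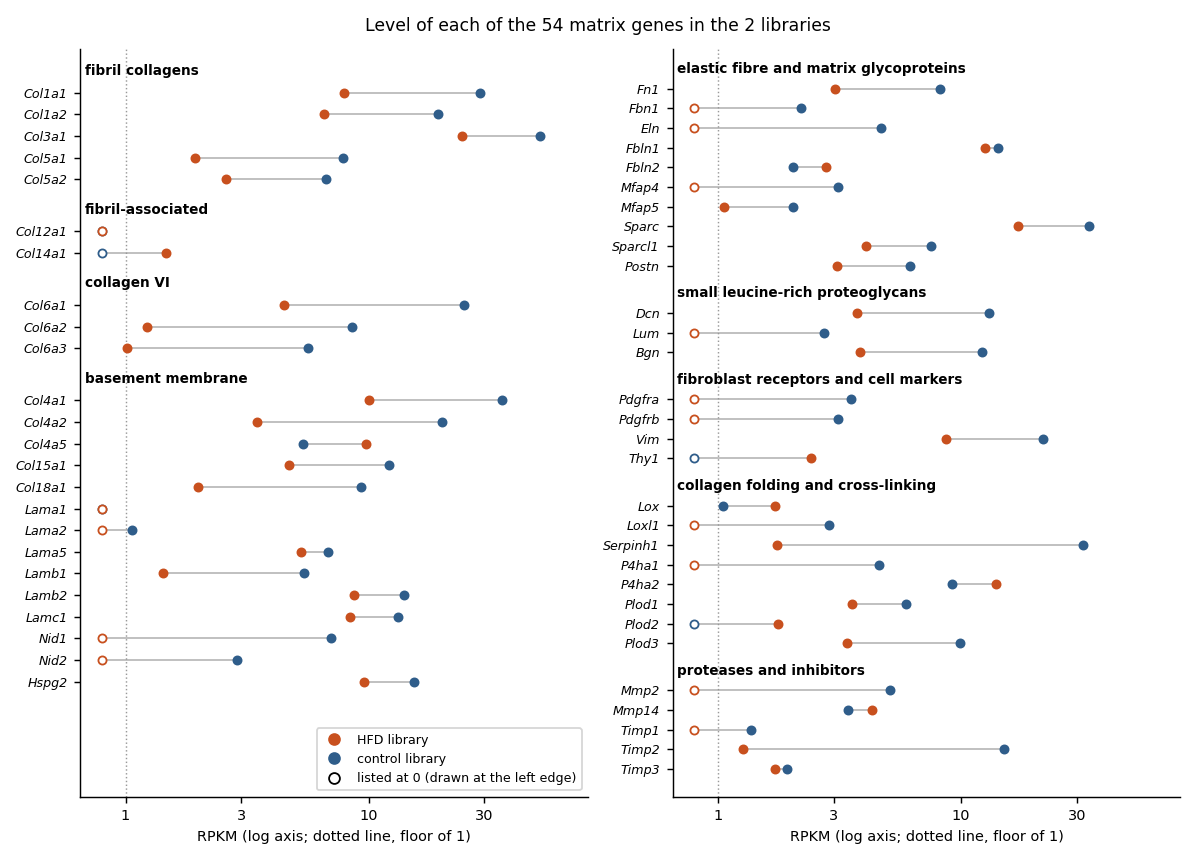
Level of each of the 54 genes in the HFD library (orange) and the control library (blue), in RPKM on a log axis, by role; open circles at the left edge are genes listed at 0, and overlap where both are. The orange point lies left of the blue one for 44 of the 52 genes with a filled point, and the sides of Fbln2, Mmp14, P4ha2, Fbln1 and Timp3 change under another scaling.

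**Figure D2:**
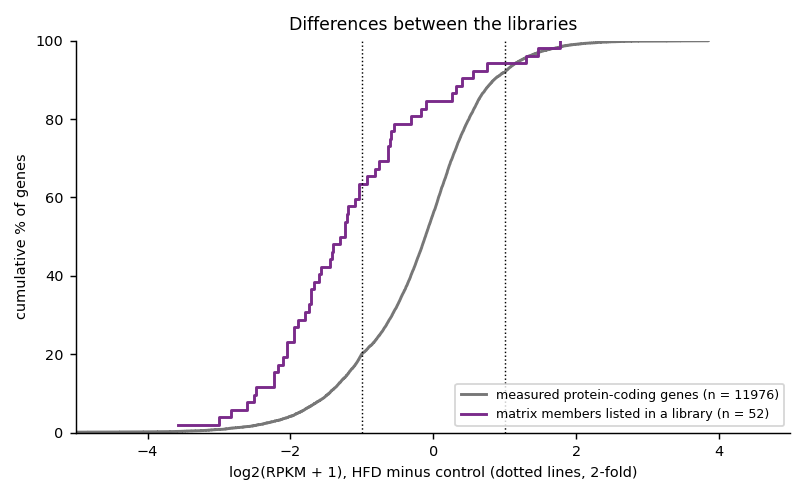
Cumulative share of genes (percent) against the difference between the libraries on the log2(RPKM + 1) scale, for the 52 matrix genes listed in a library and for 11976 measured protein-coding genes. The curve of the matrix genes lies to the left, with 33 of 52 below the 2-fold line.

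Fibril-forming collagens make up the bulk of interstitial matrix, and all 5 were over 2-fold lower in the HFD library. Col3a1 (ENSMUSG00000026043, chromosome 1, 45311538 to 45349706, mm10), a collagen of soft, distensible tissue, had the highest level of all members in both libraries, at 24.2 RPKM (HFD) and 50.9 RPKM (control). Col1a1 and Col1a2 encode the paired chains of collagen I, the main fibril collagen. Col1a1 stood at 7.96 RPKM with HFD and 28.9 in control, 3.63 times lower (3.38 to 3.89). Col1a2 stood at 6.58 and 19.3 RPKM, 2.93 times lower (2.76 to 3.11). The intervals of these chains do not overlap, and the level of Col1a1 relative to Col1a2 was lower with HFD (1.21) than in control (1.498). Col5a1 and Col5a2, chains of the collagen that starts fibrils and sets their width, were low in both libraries. Col5a1 stood at 1.93 RPKM with HFD and 7.87 in control, and Col5a2 at 2.59 and 6.67.

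Of the fibril-associated collagens 1 was measured. Col14a1, which coats fibrils, was listed at 1.47 RPKM with HFD and at 0 in control. Col12a1, a relative of it, was listed at 0 in both.

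Collagen VI forms beaded filaments close to cells, and its 3 chains had the largest difference in summed level of the 9 roles, 5.81 times lower with HFD. Col6a1 stood at 4.48 RPKM with HFD and 24.8 in control, 5.54 times lower (4.98 to 6.17). Col6a3 stood at 1.01 and 5.62 RPKM, also 5.54 times lower (4.84 to 6.37). The level of Col6a1 relative to Col6a3 was thus the same to 3 digits, 4.41 in each library. Col6a2 stood at 1.22 and 8.59 RPKM, 7.04 times lower (6.09 to 8.14).

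Basement membrane genes were the largest group, with 14 members, and differed among themselves. Lama1 was listed at 0 in both libraries, and of the other 13 genes 12 were lower and 1 higher in the HFD library. Of the 13, 8 were over 2-fold lower, 3 of them listed in control only, and the median was -1.21. Col4a1 and Col4a2 encode the chains of the collagen IV network found in almost every basement membrane. Col4a1 stood at 10.1 RPKM with HFD and 35.4 in control, 3.51 times lower (3.30 to 3.72). Col4a2 stood at 3.47 and 20.02 RPKM, 5.77 times lower (5.23 to 6.37). Both chains were lower, and the intervals of their ratios do not overlap. Nid1 and Nid2 encode nidogens, which link collagen IV to laminin, and both were listed at 0 with HFD against 7.03 and 2.87 RPKM in the control library. Col15a1 and Col18a1, collagens of vascular and epithelial basement membranes, stood at 4.72 and 12.2 RPKM (Col15a1) and at 1.98 and 9.32 RPKM (Col18a1).

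Laminin chains and perlecan differed less. Lama5, Lamb2 and Lamc1 encode chains that join in a laminin of adult epithelial and vascular basement membranes. Lama5 stood at 5.27 RPKM with HFD and 6.79 in control, 1.29 times lower (1.18 to 1.41). Lamb2 stood at 8.68 and 14.0 RPKM, 1.61 times lower (1.48 to 1.76). Lamc1 stood at 8.43 and 13.3 RPKM, 1.57 times lower (1.46 to 1.70). The level of Lamb2 relative to Lamc1 was 1.03 with HFD and 1.06 in control, close to equal in each. Hspg2, which encodes perlecan, the large heparan sulfate proteoglycan of these sheets, stood at 9.54 and 15.4 RPKM, 1.62 times lower (1.53 to 1.70). Lamb1, a beta chain shared by mesenchymal and vascular laminins, differed more, at 1.43 and 5.43 RPKM. Lama2, the alpha chain of muscle laminin, was listed at 0 with HFD and at 1.07 RPKM in control.

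The member of this group that was higher in the HFD library was Col4a5 (ENSMUSG00000031274, chromosome X, 141475385 to 141689234), at 9.73 RPKM against 5.37 in control, a ratio of 1.81 (1.61 to 2.04). Its product assembles with those of Col4a3 and Col4a4 in a separate collagen IV network, known from the kidney glomerulus and other epithelial basement membranes. Those partners are not among the 54 genes but had the highest levels with HFD among 27 other collagen genes. Col4a3 stood at 22.2 RPKM with HFD and 3.26 in control, a ratio of 6.79 (6.07 to 7.62). Col4a4 stood at 12.5 and 3.04 RPKM, a ratio of 4.13 (3.68 to 4.65). All 3 chains of that network were thus higher in the HFD library, as they were under each of 4 other scalings, while Col4a1 and Col4a2 were lower. Col4a6, the remaining chain, named here after its value was seen, was listed at 0 with HFD and at 1.22 RPKM in control.

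The collagen IV genes lie head to head in pairs in the mouse genome. In the annotation (GENCODE M21, GRCm38, the assembly also called mm10) the spans of Col4a1 (chromosome 8, 11198423 to 11312826, minus strand) and Col4a2 (11312805 to 11449287, plus strand) overlap by 22 bases. Those bases are shown because the start sites of both chains lie at their ends, from RefSeq's GRCm38.p6 promoter table, on the plus strand at chr8:11312805-11312826.
Col4a1 and Col4a2 overlap: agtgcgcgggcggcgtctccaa
Col4a4 and Col4a3 (chromosome 1) are separated by 71 bases and Col4a6 and Col4a5 (chromosome X) by 1308. In the first pair both genes were lower in the HFD library, in the second both were higher, and in the third Col4a5 was higher while Col4a6 was listed at 0. Other members also lie next to each other. Col3a1 and Col5a2 are 24614 bases apart on chromosome 1, Col6a2 and Col6a1 85161 bases apart on chromosome 10, and Dcn and Lum 46984 bases apart on chromosome 10. Both genes of each of these 3 pairs were lower in the HFD library.

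**Figure D3:**
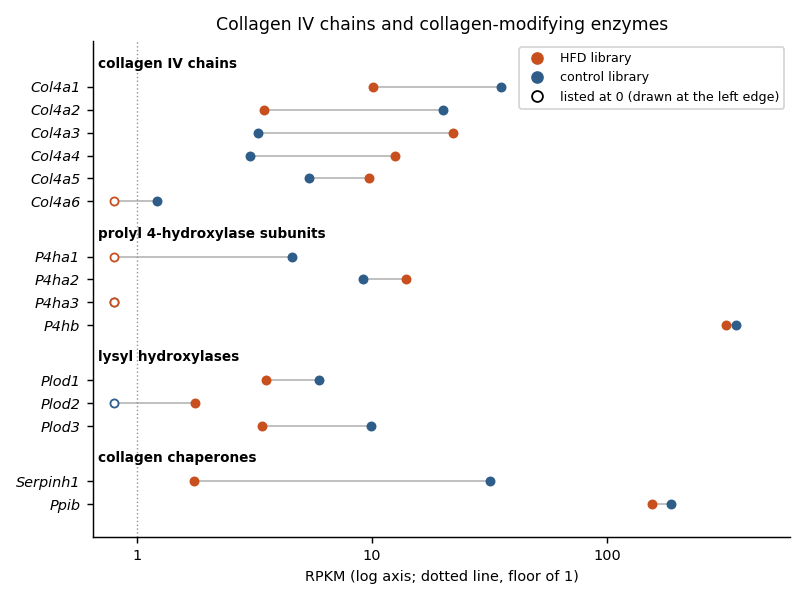
Levels (RPKM, log axis) of collagen IV chains, prolyl and lysyl hydroxylase subunits and collagen chaperones in the HFD library (orange) and the control library (blue); open circles are genes listed at 0. Col4a1 and Col4a2 lie lower in the HFD library while Col4a3, Col4a4 and Col4a5 lie higher, and Serpinh1 has the widest gap, among genes listed in both, from 31.8 to 1.76 RPKM; P4ha2 is higher as deposited but not when scaled to the sum without the 20 most abundant genes.

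Elastic fibre and matrix glycoprotein genes were lower in 9 of 10 cases, 4 of them over 2-fold, with a median of -0.87. Of the 4, 3 were listed in control only, and 23.9% of all measured genes were over 2-fold lower. Sparc (chromosome 11, 55394500 to 55423183), a collagen-binding glycoprotein, was the second most abundant member in the HFD library and the third in the control library, at 17.2 and 33.6 RPKM, 1.95 times lower (1.81 to 2.10). Fn1, fibronectin, stood at 3.04 RPKM with HFD and 8.23 in control, 2.71 times lower (2.47 to 2.97). Several elastic fibre genes were listed at 0 with HFD. Eln, elastin, was listed at 0 and at 4.69 RPKM in the control library. Fbn1, the microfibril protein fibrillin, and Mfap4, a microfibril-associated protein, were listed at 0 against 2.19 and 3.12 RPKM. Fibulins bridge elastic fibres and basement membranes, and the members Fbln1 and Fbln2 differed little. The fibulin genes Fbln5, Efemp1 and Efemp2, outside the 54, were listed at 0 with HFD against 1.24, 3.07 and 2.12 RPKM. Fbln1 stood at 12.6 RPKM with HFD and 14.2 in control, 1.13 times lower (1.03 to 1.25) but higher when scaled to the sum over protein-coding genes. Fbln2 stood at 2.78 and 2.04 RPKM, a ratio of 1.37 (1.12 to 1.67) that was below 1 when scaled without the 20 most abundant genes. Sparcl1, a relative of Sparc, was 1.86 times lower (1.55 to 2.21) and Mfap5, of microfibrils, 1.91 times lower (1.40 to 2.64). Postn, periostin, stood at 3.09 and 6.18 RPKM.

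All 3 small leucine-rich proteoglycans, which bind collagen fibrils, were over 2-fold lower. Dcn, decorin, stood at 3.75 RPKM with HFD and 13.1 in control, 3.49 times lower (3.13 to 3.91). Bgn, biglycan, stood at 3.84 and 12.2 RPKM, 3.18 times lower (2.85 to 3.55). Lum, lumican, was listed at 0 with HFD and at 2.74 RPKM in control.

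The fibroblast receptors and cell markers went both ways. Pdgfra and Pdgfrb encode the receptors for platelet-derived growth factor that define fibroblasts and mural cells. Both were listed at 0 with HFD, against 3.52 RPKM for Pdgfra and 3.13 for Pdgfrb in the control library. Vim, vimentin, the intermediate filament of mesenchymal cells and leukocytes, stood at 8.67 and 21.7 RPKM, 2.50 times lower (2.29 to 2.73). Thy1, a surface glycoprotein of fibroblasts, neurons and T cells, was listed at 2.42 RPKM with HFD and at 0 in control.

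The enzymes and chaperones of collagen assembly showed the widest spread, from the lowest ratio of any member listed in both libraries to 3 genes that were higher in the HFD library. Serpinh1 (ENSMUSG00000070436, chromosome 7, 99345376 to 99353239) encodes HSP47, the chaperone that binds the collagen triple helix in the endoplasmic reticulum. It stood at 1.76 RPKM with HFD and 31.8 in control, 18.1 times lower (14.8 to 22.4), and moved from rank 4 among the members in the control library to rank 31 in the HFD library. P4ha1 and P4ha2 encode alternative catalytic subunits of prolyl 4-hydroxylase, which stabilizes the collagen helix. P4ha1 was listed at 0 with HFD and at 4.58 RPKM in control. P4ha2 stood at 14.0 RPKM in the HFD library, the third highest of all members, and at 9.18 in control, a ratio of 1.52 (1.39 to 1.67); scaled without the 20 most abundant genes its difference was -0.00097 on the log2(RPKM + 1) scale. P4hb, the partner subunit shared by both and also a general disulfide isomerase, stood at 318 and 352 RPKM, a ratio of 0.905 (0.884 to 0.927).

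Lysyl hydroxylases prepare collagen for cross-linking. Plod1 stood at 3.55 RPKM with HFD and 5.95 in control, 1.68 times lower (1.47 to 1.91). Plod3 stood at 3.41 and 9.86 RPKM, 2.89 times lower (2.51 to 3.32). Plod2, whose product acts on the telopeptides of fibril collagens, was listed at 1.77 RPKM with HFD and at 0 in control. Of the secreted lysyl oxidases that make the cross-links, Loxl1 was listed at 0 with HFD against 2.85 RPKM. Lox stood at 1.71 against 1.05 RPKM, a ratio of 1.63 (1.20 to 2.28) resting on an estimated 208 and 49 reads. The exons of Plod3, Timp3 and Fbn1 overlap those of other genes on the opposite strand over more than 10% of their length, and with the strand setting not given in the sources used here their values are uncertain.

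The bases before the start sites of 4 genes are shown because these genes mark the ends of the range: Serpinh1 with the lowest ratio, the hydroxylase genes P4ha1 and P4ha2 on opposite sides, and Col4a5 with the highest ratio of the members listed in both libraries. They come from RefSeq's GRCm38.p6 promoter table, which held 34 of the 54 members, and run 5′ to 3′ on the strand of the gene up to RefSeq's start site or, for Col4a5, up to the first annotated exon. For P4ha2 that start lies inside the GENCODE span of the gene, which begins further upstream, at 54100095 on chromosome 11. The windows are chr7:99353240-99353489 on the minus strand for Serpinh1, chr10:59323046-59323295 for P4ha1, chr11:54100674-54100923 for P4ha2 and chrX:141475169-141475384 for Col4a5, the last 3 on the plus strand. Capitals mark matches on either strand to CCAAT (a box common in collagen promoters), TATAAA (the TATA box), GGGCGG (the GC box bound by Sp1), ACGTG (the core of the hypoxia response element) and GAANNTTC (the unit of the heat shock element).
Serpinh1: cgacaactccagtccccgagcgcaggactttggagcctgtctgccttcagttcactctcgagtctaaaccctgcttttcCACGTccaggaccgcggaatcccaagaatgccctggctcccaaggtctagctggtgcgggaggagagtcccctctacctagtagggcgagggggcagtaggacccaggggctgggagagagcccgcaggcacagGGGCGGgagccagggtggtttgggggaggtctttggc
P4ha1: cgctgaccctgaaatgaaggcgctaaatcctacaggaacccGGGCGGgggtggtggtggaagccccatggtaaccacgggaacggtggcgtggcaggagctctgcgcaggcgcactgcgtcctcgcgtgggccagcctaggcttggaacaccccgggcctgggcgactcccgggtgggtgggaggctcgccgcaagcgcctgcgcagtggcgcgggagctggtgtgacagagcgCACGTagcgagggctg
P4ha2: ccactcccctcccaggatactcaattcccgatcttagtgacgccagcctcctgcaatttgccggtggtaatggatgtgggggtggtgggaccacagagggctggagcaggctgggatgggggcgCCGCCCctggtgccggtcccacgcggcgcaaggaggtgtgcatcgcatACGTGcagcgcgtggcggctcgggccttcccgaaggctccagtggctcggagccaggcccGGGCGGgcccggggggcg
Col4a5: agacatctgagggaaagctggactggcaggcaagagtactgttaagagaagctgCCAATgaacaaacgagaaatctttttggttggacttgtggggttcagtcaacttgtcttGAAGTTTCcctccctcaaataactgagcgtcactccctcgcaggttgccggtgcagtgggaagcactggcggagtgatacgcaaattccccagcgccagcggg
Serpinh1, P4ha1 and P4ha2 each hold 1 match to ACGTG, and they hold 1, 1 and 2 matches to GGGCGG. Col4a5 holds 1 match each to CCAAT and GAANNTTC and none to the others. Over all 32817 promoter windows of 250 bases, GGGCGG was found in 32.7%, CCAAT in 33.8%, ACGTG in 16.6%, TATAAA in 12.4% and GAANNTTC in 6.69%. The 34 members had 38 such windows, of which 23 held GGGCGG, 12 CCAAT, 10 ACGTG, 4 TATAAA and 2 GAANNTTC. P4ha1 and P4ha2, which lay on opposite sides as deposited, thus share the same kinds of match. Whether these bases bear on the difference between the libraries was not tested.

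Matrix proteases and their inhibitors were mixed. Mmp2, a gelatinase made mainly by fibroblasts, was listed at 0 with HFD and at 5.10 RPKM in control. Mmp14, the membrane-bound protease that activates it, stood at 4.31 and 3.44 RPKM, a ratio of 1.25 (1.07 to 1.47) that was below 1 when scaled without the 20 most abundant genes. Timp2 (chromosome 11, 118301069 to 118355740), the inhibitor that takes part in that activation, stood at 1.26 RPKM with HFD and 15.1 in control, 11.9 times lower (9.77 to 14.5). Its ratio was the second lowest among members listed in both libraries. Timp3, a matrix-bound inhibitor, stood at 1.72 and 1.93 RPKM, and its interval (0.739 to 1.09) includes 1. Timp1, a secreted inhibitor, was listed at 0 with HFD and at 1.36 RPKM in control, on an estimated 12 reads.

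**Figure D4:**
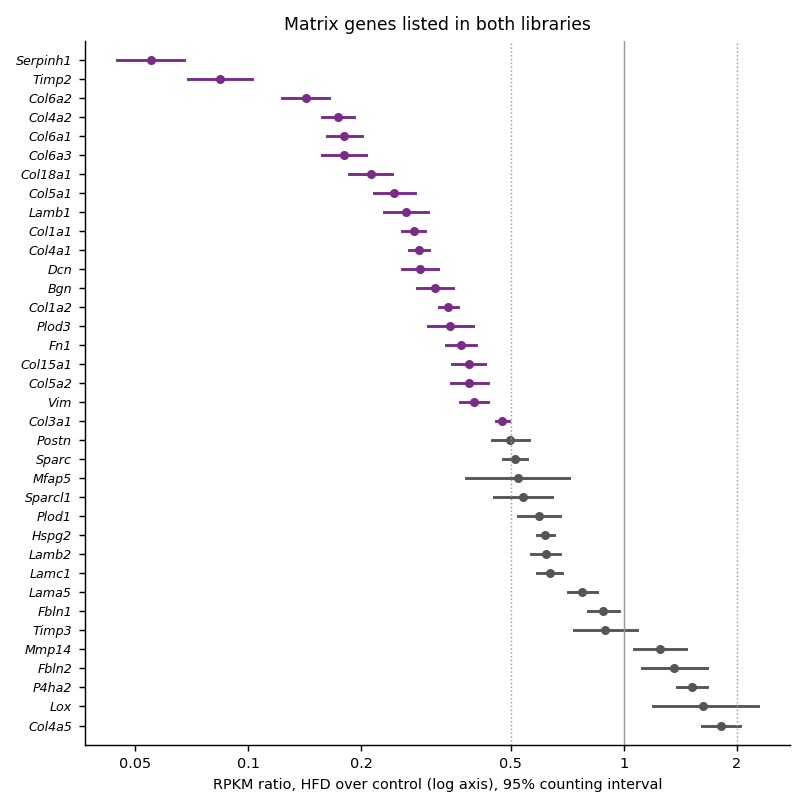
Ratio of RPKM, HFD over control, on a log axis for the 36 members listed in both libraries, with 95% counting intervals as bars; purple marks the 20 genes whose interval lies below 0.5. Serpinh1 and Timp2 lie lowest and Col4a5 highest, and the intervals say nothing about variation between mice; Fbln2, Mmp14, P4ha2, Fbln1 and Timp3 change side under another scaling.

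The difference on the log2(RPKM + 1) scale had little relation to the length of the gene's longest transcript across the 52 measured members (Spearman's rho 0.01) and a weak negative one to its GC content (-0.25). The members share both libraries and their depths, so these are descriptions only. After subtraction of the median difference of protein-coding genes in the same bin of GC content and length, 30 members were over 2-fold lower, beside 33 without it.

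Further genes of the matrix, taken from lists chosen by function, differed by class. For comparison, 23.9% of all measured genes were over 2-fold lower and 12.5% over 2-fold higher. Other matrix glycoproteins and proteoglycans were lower in 20 of the 21 measured of 28, 18 of them over 2-fold, with a median of -1.88, and 12 were listed at 0 in the HFD library. Ltbp4, which tethers latent TGF-beta to microfibrils, stood at 4.79 RPKM with HFD and 29.1 in control, 6.08 times lower (5.60 to 6.62). Igfbp7, a secreted protein of vessels and stroma, stood at 4.83 and 23.9 RPKM, and Spon2, a secreted matrix protein, was listed at 0 against 6.02 RPKM. Mgp, which keeps matrix from calcifying, was the single one that was higher as deposited, at 5.44 against 3.64 RPKM. Its ratio of 1.496 (1.07 to 2.18), on an estimated 42 reads in control, was below 1 when scaled without the 20 most abundant genes. Further collagen processing genes were lower in 11 of 15 measured, 5 over 2-fold and 1 over 2-fold higher (Fkbp14, a prolyl isomerase, at 2.51 RPKM against a listed 0), with a median of -0.57, and 4 of the 5 were listed in control only. Ppib, cyclophilin B, a collagen-folding isomerase, stood at 155 and 187 RPKM, and Loxl2, a lysyl oxidase, was listed at 0 against 3.16 RPKM. Of the 27 other collagens 11 were measured, 8 lower and 3 higher, with Col4a3 and Col4a4 among the higher. Col16a1, a fibril-associated collagen, was listed at 0 with HFD and at 3.06 RPKM in control. The third higher one was Col10a1, a collagen of growth plate cartilage, at 5.41 RPKM with HFD and listed at 0 in control.

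Genes by which epithelial cells hold on to the basement membrane stood near equality. Of 20 epithelial basement membrane and anchoring genes 15 were measured, 7 higher and 8 lower, with a median of -0.01 that turned positive under 3 of 4 other scalings. Dag1, dystroglycan, a laminin receptor, stood at 86.1 RPKM with HFD and 93.0 in control, a ratio of 0.925 (0.897 to 0.954). Plec, plectin of the hemidesmosome, stood at 38.9 and 38.5 RPKM, a ratio of 1.01 (0.981 to 1.04). Lamb3, an epithelial laminin chain named after its value was seen, had a ratio of 1.03 (0.962 to 1.10). Dst, another hemidesmosome linker, had the highest ratio, at 37.1 against 17.1 RPKM, and Lama4, a laminin chain of vessels, the lowest difference, listed at 0 against 1.74 RPKM. Matrix receptors were lower in 12 of 17 measured, 7 over 2-fold and 1 over 2-fold higher, and 6 of the 7 were listed in control only. The shares over all measured genes were 23.9% over 2-fold lower and 12.5% over 2-fold higher. The median difference over the 17 receptor genes was -0.70, and over the 11 found in both libraries the median log2 ratio was -0.04. The syndecan genes Sdc4 and Sdc1 had 119 and 99.2 RPKM (Sdc4) and 79.9 and 70.4 RPKM (Sdc1), and Itga5, the fibronectin receptor chain, was listed at 0 against 3.60 RPKM. Itga7, a laminin receptor chain known from muscle, had the highest ratio, at 8.78 against 2.33 RPKM.

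Further matrix proteases and inhibitors were higher in 5 and lower in 5 of 10 measured, with 3 and 4 over 2-fold, of which 2 and 3 were listed in 1 library only. Adam10, a sheddase, stood at 44.1 RPKM with HFD and 19.8 in control, a ratio of 2.23 (2.08 to 2.39), and the membrane protease gene Mmp15 at 38.9 and 38.6 RPKM. Mmp19 was listed at 2.45 RPKM with HFD and at 0 in control, and the inhibitor gene Timp4 at 0 and 2.15 RPKM. TGF-beta is the main inducer of collagen genes, and of its 22 signalling genes 20 were measured, 14 lower and 6 higher, with a median of -0.23. Over 2-fold lower were 7 and higher none, but 6 of the 7 were listed in control only, and 23.9% of all measured genes were over 2-fold lower. The 14 listed in both split into 8 lower and 6 higher, with a median log2 ratio of -0.02. Ccn1, a matricellular target, was listed at 0 with HFD and at 8.48 RPKM in control. The receptor gene Tgfbr2 stood at 28.0 and 17.5 RPKM, a ratio of 1.597 (1.51 to 1.69), and the repressor gene Ski at 14.9 and 19.0 RPKM. Tgif1, a corepressor, had the highest ratio, at 11.8 against 6.89 RPKM.

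Markers of stromal and vascular cells were mostly lower with HFD too, by differing amounts, and their part in the result was not tested. In these bulk libraries, fewer cells of a type and less RNA per cell cannot be told apart. The 12 smooth muscle markers were all lower in the HFD library, with sums of 41.8 RPKM there and 253 in the control library, 6.07 times lower. The defining genes Myh11, Acta2 and Tagln stood at 3.32, 12.8 and 2.50 RPKM with HFD and at 19.1, 96.1 and 39.7 in control. Of 14 endothelial markers 11 were measured and 10 were lower, with sums of 48.6 and 88.1 RPKM, among them Pecam1 at 1.5 and 7.08 RPKM, Cdh5 at 1.83 and 3.43, and Kdr at 1.28 and 4.85. Of 6 pericyte markers 5 were lower and 1 higher, with sums of 6.37 and 11.9 RPKM. Of 19 further fibroblast markers 13 were measured, 12 lower and 1 higher, with 6 listed at 0 in the HFD library only. The median difference over the 13 was -1.25, beside -1.27 over the 52 measured matrix members. Over the 7 listed in both libraries, which leave out those 6 and include Gsn, the median log2 ratio was -0.35. It was -1.34 over the 36 matrix members listed in both. The sums of the fibroblast markers, 171 and 205 RPKM, were dominated by Gsn at 138 and 145 RPKM, a gelsolin gene that epithelial cells also express. Among their defining markers Dpt, dermatopontin, stood at 8.87 RPKM with HFD and 15.0 in control. Pdpn was listed at 0 and 2.89 RPKM, and Clec3b was higher, at 10.97 and 6.63 RPKM. Dpt and Clec3b were still listed with HFD, while Pdgfra, Pdgfrb and Lum were listed at 0. The latter stood nearer the floor in control, at 3.52, 3.13 and 2.74 RPKM. Being listed or not therefore does not compare the size of these differences.

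Epithelial and other markers differed by cell type. General epithelial markers summed to 2637 RPKM with HFD and 2420 in control, with 3 of 6 higher, and parietal markers to 12980 and 10300 RPKM, with 9 of 11 higher. The parietal list includes Gif, intrinsic factor, a chief cell gene in the mouse, which was lower, at 397 and 494 RPKM. Scaled without the 20 most abundant genes, the general epithelial and parietal sums were both lower with HFD. Pit cell markers summed to 36056 and 14515 RPKM, with 4 of 5 higher as deposited, and neck cell markers to 7494 and 8500 RPKM. The pit genes Gkn1 and Gkn2 had ratios of 4.33 and 2.38, while Muc5ac, Psca and Tff1 had 1.31, 1.02 and 0.986. Chief cell markers summed to 45657 and 102397 RPKM, endocrine markers to 1211 and 8296, and pancreatic acinar markers to 1797 and 13552. Lower with HFD were 3 of 4 measured chief, 5 of 6 endocrine and all 8 acinar markers. The endocrine and acinar sums were 6.85 and 7.54 times lower, beside 2.53 times for the 54 matrix genes. Nearly all of the acinar sum was Clps, colipase, at 1790 and 12989 RPKM, so 7.54 mostly describes that gene. Of the 8 acinar genes 6 were listed at 0 with HFD. Erythroid markers summed to 22.5 and 64.8 RPKM, with all 5 lower, and adipocyte markers to 6.03 and 18.2, with Adipoq and Plin1 listed at 0 in both. Leukocyte markers were near the floor, with 4 of 12 measured and sums of 7.81 and 2.77 RPKM, and Ptprc was listed at 0 in both. No marker of mesothelium (4 genes) or of enteric glia and neurons (7 genes) was listed in either library.

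**Figure D5:**
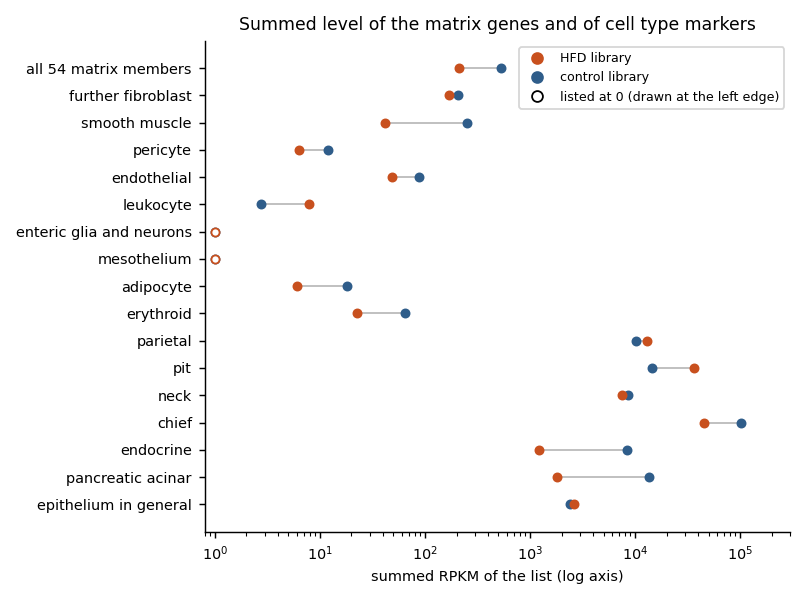
Summed RPKM (log axis) of the 54 matrix genes and of 16 lists of cell type markers in the HFD library (orange) and the control library (blue); open circles are lists with every gene at 0, where both libraries overlap. The matrix genes, at 211 and 533 RPKM, differ in the same direction as smooth muscle (41.8 and 253) and endocrine markers (1211 and 8296). The same holds for pancreatic acinar markers (1797 and 13552), whose sum is nearly all Clps. As deposited, the parietal, pit, general epithelial and leukocyte sums differ in the other direction. Scaled without the 20 most abundant genes, the parietal and general epithelial sums are lower with HFD too.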

How the data were processed

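RNA of sorted parietal cells was measured in 2 libraries, 1 per diet. Per the labels' protocols, ribosomal RNA was removed from total RNA and libraries were made with an Ion total RNA kit. Bedtools 2.25.0 and mm10 appear in the submitters' processing notes, with aligner, counting rule and annotation release not given in the sources used here. Deposited values, headed RPKM, were read as log2 of RPKM with no pseudocount, with genes at or below 1 RPKM listed as 0, because no value is below 0, values above 0 start just above it, and powers of 2 of low values often fall on whole multiples of a step; no header or label states this scale.

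That step, found over single-exon genes, gave depths of 25.5 M and 9.84 M reads; 47.8% of 184 and 36.0% of 720 low values were whole within 0.005 of a step. Symbols, positions and exon lengths came from GENCODE M21 (36308 identifiers matched, 1779 did not). Differences are log2(RPKM + 1), HFD minus control; ratios use RPKM alone, with intervals from RPKM times exon length times depth. Without counts or replicates no count model or test was run. The calculations were tested on simulated data (Python 3.11.15, SciPy 1.17.1). The members, lists and alternatives were chosen with earlier results of these data known. Members were named with both values when among the 4 highest of their role, at its extremes or listed in 1 library. Of further matrix lists, the 2 highest levels and the extremes of ratio with at least 50 estimated reads were named. Of marker lists, the first 3 were to be named, as was done for the smooth muscle, endothelial, further fibroblast and pit lists. The other marker lists are given by sums, counts or some of their genes. Col4a6, Lamb3, Gsn, Fbln5, Efemp1, Efemp2, Gif, Clps, Muc5ac and Psca were named after their values were seen, and members outside that rule were given values likewise. Alternatives were other scalings, pseudocounts, minimums and ways of entering a 0.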

Additional observations from a re-analysis of the deposited data

How the results depend on the processing

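The median of the members stayed below 0 under each of 11 alternatives, from -0.70 (pseudocount of 5 RPKM) to -1.71 (scaled without the 20 most abundant genes). Members over 2-fold lower numbered 21 over genes listed in both libraries and 12 with a pseudocount of 5 RPKM, beside 33; members over 2-fold higher numbered 0 with these, with a listed 0 entered as 1 RPKM, and with a minimum of 5 RPKM, beside 3. Members whose whole interval lay beyond 2-fold lower numbered 16 to 28 under other scalings, lengths and depths.

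With a pseudocount of 0.1 RPKM, role medians became 3.97 (fibril-associated), -1.80 (basement membrane), -3.16 (fibroblast receptors and markers) and -3.47 (proteases and inhibitors), and list medians -3.67 (other collagens) and -3.75 (further glycoproteins and proteoglycans). With 5 RPKM these were 0.37, -0.66, -0.73, -0.35, -0.31 and -0.63 in that order, with -1.13 for collagen VI and -0.96 for small proteoglycans. With a listed 0 entered as 1 RPKM they were 0.30 (fibril-associated), -0.24 (proteases), -0.28 (other collagens) and -1.03 (further glycoproteins). The sign turned for epithelial basement membrane genes (0.26, 0.021 and 0.036 scaled to the sum, median ratio and upper quartile of protein-coding genes) and, scaled to the sum of protein-coding genes, for further proteases (0.029) and TGF-beta genes (0.047). A pseudocount changes low genes by construction. For the scalings the cause was not tested. Of 560 values of single genes under these settings 322 stayed within a margin of 50% of the width of the counting interval or, for a gene listed in 1 library, of 1.5-fold; no called gene reversed.

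No paired analysis was possible because each group has 1 library, so no fit leaving out a library was run. At 1 RPKM the control library rests on fewer reads, so values near the floor are least precise there.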
